A study of Homo sapiens with 10 samples.

Results

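Heat shock proteins and their partners were followed in U2OS cells that had lost most of the RNA of DDX41, a DEAD-box helicase. The genes were chosen by name: protein-coding genes whose GENCODE symbol begins with DNAJA, DNAJB or DNAJC and a number, with HSPA, HSPB, HSPD, HSPE, HSPH or HSP90A, or with CCT and a number, together with BAG1 to BAG6, TCP1 and HSF1, and without the endoplasmic reticulum chaperones HSPA5, DNAJB9, DNAJB11, DNAJC3 and HSP90B1. This gave 88 genes among 63299 identifiers in the count tables, of which 19629 were protein-coding. Polyadenylated RNA was sequenced from U2OS osteosarcoma cells, a human line spelled U20S in the labels, 48 h after transfection of a pool of siRNAs. The 5 libraries called siCtrl received the control siRNA, and the 5 called siDDX41 received siRNA against DDX41. Both groups share the cell line and the medium, DMEM with serum. Library totals ran from 21807041 to 24896398 assigned reads. The labels do not say whether the replicates came from separate cultures, so p-values measure the spread between these samples, which may be technical.

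Levels are given as counts per 1000000 (CPM) on library sizes scaled by edgeR's TMM method, and levels of different genes are compared only as CPM per kilobase of exon. Exon length joins the exons of all annotated transcripts of a gene, so rankings of abundance depend on the annotation. A gene was called changed at a Benjamini-Hochberg adjusted p under 0.01 over all 16143 genes tested with edgeR's quasi-likelihood test. DDX41 was at 49.1, 49.4, 47.4, 47.1 and 50.5 CPM in siCtrl replicates 1 to 5 and at 11.4, 13.7, 12.4, 11.2 and 12.3 CPM in siDDX41 replicates 1 to 5. The groups lay far apart, and siDDX41 replicate 2 kept the highest DDX41 level of its group (log2 fold change -1.99, SE 0.049, edgeR adjusted p = 4.47e-24). Markers of the mesenchymal and osteoblast lineage were present in siCtrl: VIM at 2465 ± 51 CPM (mean ± SD, n = 5, as throughout), COL1A1 at 1875 ± 100, SPARC at 2807 ± 32.8 and RUNX2 at 32.4 ± 1.25. In siDDX41 RUNX2 (log2 fold change -0.40) and VIM (-0.087) were called lower and SPARC (0.18) higher, each without overlap of the groups, and COL1A1 was not called. COL1A2 was close to absent at 0.448 ± 0.203 CPM. Among markers of other cell types, CDH1, PTPRC, PECAM1 and CDH5 were each near or under 1 CPM, EPCAM was at 7.99 ± 0.447 CPM, and CD34 fell from 30.4 ± 1.49 to 4.66 ± 0.9 CPM. CDH5 was also called lower (log2 fold change -1.49, SE 0.26, edgeR adjusted p = 8.54e-06).

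Most chaperones bind proteins that are not yet folded and release them through cycles of ATP hydrolysis. HSP70 proteins take their clients from J-domain proteins (the DNAJ families) and let go of them with the help of nucleotide exchange factors such as the HSP110 and BAG proteins; HSP90 receives some of these clients, and the barrel-shaped chaperonins TRiC/CCT in the cytosol and HSPD1/HSPE1 in mitochondria enclose others. Under heat or other proteotoxic stress the transcription factor HSF1 binds heat shock elements and raises a subset of these genes.

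In siDDX41 cells the chaperone genes moved in both directions, most of them by little. Of the 64 that passed the filter on low counts, 31 (48.4%) rose, 13 (20.3%) fell and 20 were not called. Over all genes tested, 30.3% rose and 32.1% fell. The median log2 fold change of the 64 was 0.10, against -0.0014 over all genes tested, and the median size of change regardless of sign was 0.20 against 0.28. In 25 of the 64 every siDDX41 library lay above every siCtrl library, and in 10 every one lay below, where 26.7% and 29.3% of all genes did so. The rises ran from 0.077 (HSPA8) to 0.74 (DNAJC27) and the falls from -0.098 (HSPD1) to -1.23 (DNAJC22), so the largest changes were falls. Together the 88 genes took 1.66% ± 0.0271 of the scaled counts in siCtrl and 1.80% ± 0.0418 in siDDX41. In bulk RNA, fewer cells that express a gene and less RNA per cell cannot be told apart.

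**Figure D1:**
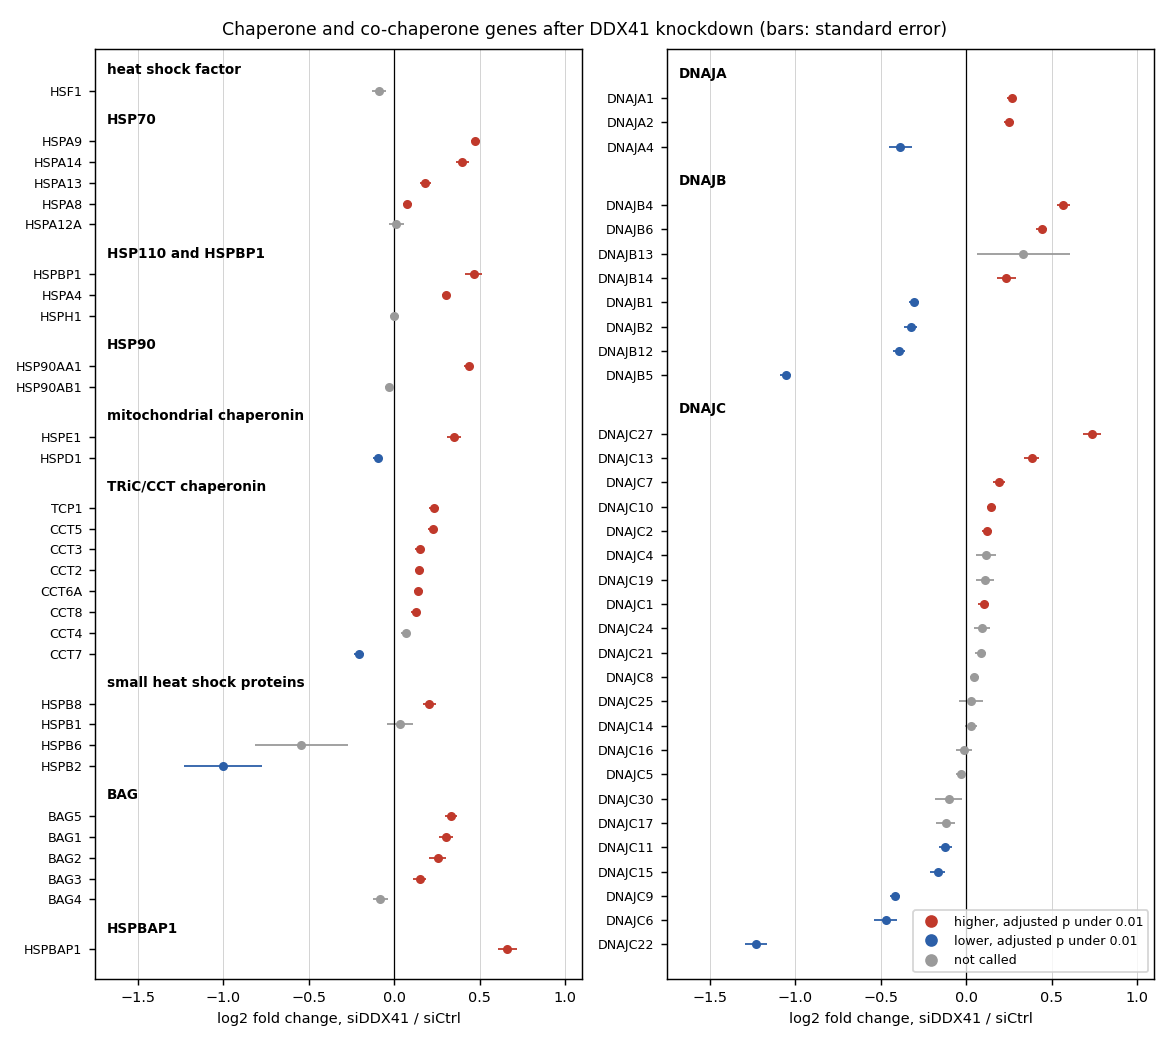
Log2 fold change of siDDX41 against siCtrl for the 64 tested genes, by role, with bars for the standard error; red points rose, blue points fell and grey points were not called at an adjusted p of 0.01. The TRiC/CCT, HSP70 and BAG genes lie mostly right of 0, and the DNAJB and DNAJC genes spread from -1.23 (DNAJC22) to 0.74 (DNAJC27).

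The other 24 genes did not pass the filter on low counts. In 9 of them no library had a read, 3 of these being readthrough genes (HSPE1-MOB4, DNAJC25-GNG10 and HSPB2-C11orf52), and 17 of the 24 had at most 5 reads in every library. The 3 readthrough genes share 99.2% to 100% of their exon bases with other genes on their strand, so a count of 0 says little about them. For 5 more of the 17 the count also says little about the gene. The stress-inducible HSP70 genes HSPA1A and HSPA1B and their neighbour HSPA1L were listed at 0 on chromosome 6. Each lay beside 10 of 10 nearest protein-coding genes that also had at most 5 reads. BAG6, on the same chromosome and with at most 2 reads in any library, lay beside 9 of 10. Between 30 and 33 Mb of that chromosome 120 of 128 protein-coding genes had at most 5 reads in every library, TUBB at 0 among them, against 275 of 899 on the rest of the chromosome. The mitochondrial J protein gene DNAJA3, on chromosome 16, had 6 such neighbours of 10. A heat shock response of HSPA1A and HSPA1B can therefore not be read from these tables. HSPA6, another stress-inducible HSP70 gene, had 2 to 10 reads per library, with means of 0.249 CPM in siCtrl and 0.275 CPM in siDDX41. Without the filter edgeR called HSPB3 higher and DNAJC12, DNAJC18 and HSPB7 lower, and DESeq2 called HSPB3 higher and DNAJC18 lower. All 4 had means under 1 CPM in both groups, and the groups did not overlap for HSPB3 and DNAJC12.

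HSF1, the factor that switches on the heat shock response, was measured as RNA only, which does not show the activity of its protein. It did not pass the threshold. Its level was 139, 159.9, 132, 142 and 146 CPM in siCtrl and 128, 142, 137, 133 and 137 CPM in siDDX41. The groups overlapped, and siCtrl replicate 2 was the highest of all 10 libraries (log2 fold change -0.086, SE 0.041, edgeR adjusted p = 0.0657). With siCtrl replicate 3, the lowest control, left out, HSF1 passed it at -0.12 (edgeR adjusted p = 0.0057). With siCtrl replicate 2 left out it was at -0.046 (edgeR adjusted p = 0.228), and with a correction for GC content, chosen after seeing the data, at -0.027 (edgeR adjusted p = 0.399). Of its 12 heat-inducible target genes among the chaperones 9 were tested, and 5 rose (HSP90AA1, HSPE1, DNAJA1, BAG3 and HSPA8), 2 fell (DNAJB1 and HSPD1) and 2 were not called (HSPH1 and HSPB1), with a median log2 fold change of 0.077, where 30.3% of all genes tested rose and 32.1% fell. This tally depended on the fit: HSPA8 and HSPD1 lost their calls in some fits, and HSPH1 was called lower with the GC correction (-0.083).

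The heat shock element that HSF1 reads was searched for as GAANNTTCNNGAA or its reverse complement TTCNNGAANNTTC, 3 units with 2 bases between them, in RefSeq windows of GRCh38.p14 that run from 250 bases before a gene's start to 50 after it. Of 77 of the chaperone genes with such a window, 7 (9.09%) held the element, against 166 of 27305 genes (0.608%) in the whole table. All of these but HSPA6 were tested. The 6 are shown because these promoters share the element while the calls of their RNAs differed. The calls of HSPA8 (higher) and HSPD1 (lower) were lost in some fits, as given below. Each stretch is on the gene's own strand, with the element in capitals. HSP90AA1 (chr14:102087108-102087144, minus strand), HSPA8 (chr11:123062167-123062378, minus strand), DNAJA1 (chr9:33025264-33025300, plus strand) and DNAJB6 (chr7:157336861-157336897, plus strand) rose, HSP90AB1 (chr6:44247766-44247855, plus strand) was not called, and HSPD1 (chr2:197500056-197500090, minus strand) fell.
HSP90AA1: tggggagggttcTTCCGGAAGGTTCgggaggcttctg
HSPA8: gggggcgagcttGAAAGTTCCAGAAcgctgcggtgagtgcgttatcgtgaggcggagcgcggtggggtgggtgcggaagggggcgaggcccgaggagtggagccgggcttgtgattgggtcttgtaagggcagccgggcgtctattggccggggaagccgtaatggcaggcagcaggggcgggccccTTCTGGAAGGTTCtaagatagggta
DNAJA1: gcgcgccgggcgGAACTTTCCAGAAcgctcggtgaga
DNAJB6: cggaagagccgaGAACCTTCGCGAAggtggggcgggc
HSP90AB1: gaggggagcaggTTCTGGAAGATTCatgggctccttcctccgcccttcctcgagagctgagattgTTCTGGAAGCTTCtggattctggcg
HSPD1: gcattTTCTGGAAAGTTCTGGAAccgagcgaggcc
The HSP90AB1 and HSPA8 stretches hold 2 elements each, and in HSPD1 2 matches overlap in a run of 4 units. In HSP90AA1 the element begins 88 bases before the start and in DNAJB6 131 bases before it. A match describes these letters only and was not tested as a binding site.

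The cytosolic HSP90 genes, which encode near-identical chaperones for kinases and hormone receptors, parted. HSP90AA1, the stress-inducible form, was at 1666, 1618, 1610, 1644 and 1579 CPM in siCtrl and at 2246, 2053, 2226, 2268 and 2178 CPM in siDDX41. Every siDDX41 library lay above every control, with siDDX41 replicate 2 the lowest of its group (log2 fold change 0.43, SE 0.027, edgeR adjusted p = 9.62e-15). HSP90AB1, the constitutive form and the most abundant of the 64 genes at 991 CPM per kilobase in siCtrl, was at 3051, 2922, 2925, 2959 and 2913 CPM in siCtrl and 2881, 2788, 2934, 2943 and 2928 CPM in siDDX41. These groups overlapped (log2 fold change -0.029, SE 0.024, edgeR adjusted p = 0.278). Per kilobase, the ratio of HSP90AA1 to HSP90AB1 was 0.319, 0.324, 0.322, 0.325 and 0.317 in siCtrl and 0.456, 0.43, 0.444, 0.451 and 0.435 in siDDX41, so HSP90AA1 made up a larger part of the pair in every knockdown library.

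Of 5 tested HSP70 genes 4 rose, where 30.3% of all genes tested did, and HSPA12A was not called. HSPA9 (mortalin), the HSP70 of the mitochondrial matrix, changed most. It stood at 349, 333, 343, 345 and 344 CPM in siCtrl and 482, 448, 489, 476 and 486 CPM in siDDX41. The groups were well separated, again with siDDX41 replicate 2 the lowest of its group (log2 fold change 0.47, SE 0.027, edgeR adjusted p = 1.40e-15). HSPA14, which sits at the ribosome with the J protein DNAJC2, rose from 54.4 ± 1.92 to 71.6 ± 3.82 CPM (log2 fold change 0.40, SE 0.038, edgeR adjusted p = 1.50e-10), and shares 12.7% of its exon bases with another gene on its strand. HSPA13, a microsomal HSP70, rose less and with overlapping groups (log2 fold change 0.18, SE 0.032, edgeR adjusted p = 8.95e-06). HSPA8 (HSC70), the constitutive cytosolic form and at 388 CPM per kilobase the most abundant HSP70, was at 1935, 1922, 1848, 1866 and 1831 CPM in siCtrl and 1948, 1907, 2000, 2052 and 2014 CPM in siDDX41. Its groups overlapped and its small rise was near the threshold (log2 fold change 0.077, SE 0.026, edgeR adjusted p = 0.00839). It was not called when any of siCtrl replicates 3, 4 or 5 or siDDX41 replicates 3, 4 or 5 was left out. Nor was it called with the replicate number as a block, or among genes with a mean of at least 5 CPM, where it was 0.061.

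**Figure D2:**
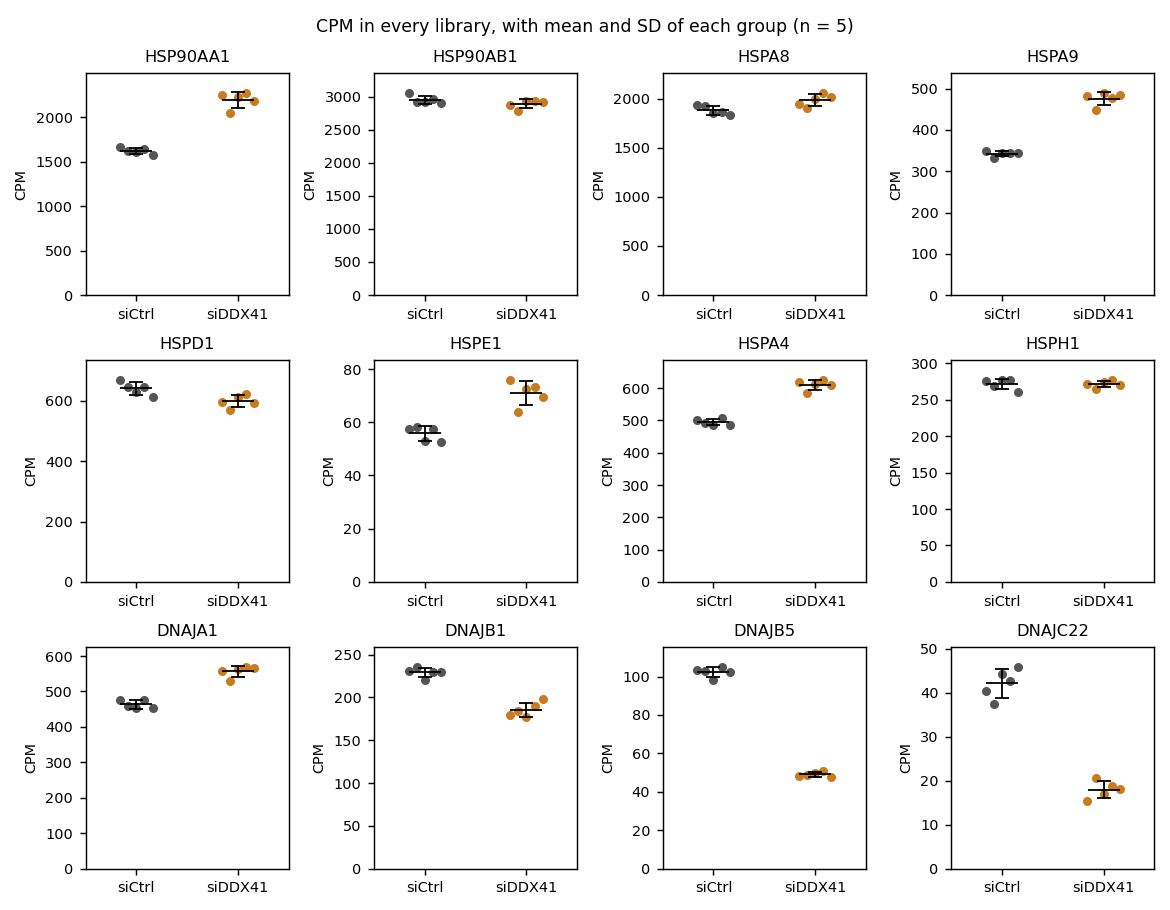
CPM of 12 chaperone genes in every library, with siCtrl in grey and siDDX41 in orange; the horizontal mark and bars show the mean and SD of 5 libraries, and each axis starts at 0. HSP90AA1, HSPA9, HSPE1, HSPA4 and DNAJA1 are higher in all siDDX41 libraries, DNAJB1, DNAJB5 and DNAJC22 lower in all, and HSP90AB1, HSPA8, HSPD1 and HSPH1 overlap.

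The exchange factors that reset HSP70 moved unevenly. HSPA4, an HSP110 protein, was at 500.2, 493, 487, 506 and 487 CPM in siCtrl and 619, 584, 614, 624 and 610.2 CPM in siDDX41, with no overlap (log2 fold change 0.30, SE 0.025, edgeR adjusted p = 9.74e-12). Its heat-inducible relative HSPH1, singled out after its values were seen, was at 272 ± 6.84 and 272 ± 4.59 CPM (log2 fold change 0.0008, SE 0.026, edgeR adjusted p = 0.981). HSPBP1, an exchange factor of another fold, rose from 27.7 ± 2.41 to 38.3 ± 1.68 CPM (log2 fold change 0.47, SE 0.05, edgeR adjusted p = 1.83e-09). Among the BAG genes, whose proteins dock on HSP70 and tie it to other pathways, 4 of 5 tested rose, beside 30.3% of all genes tested, and BAG4 was not called. BAG5 rose from 57.3 ± 2.56 to 72.1 ± 2.17 CPM (log2 fold change 0.33, SE 0.035, edgeR adjusted p = 1.55e-09) and BAG1 from 31.6 ± 1.45 to 39.1 ± 1.43 CPM (log2 fold change 0.30, SE 0.042, edgeR adjusted p = 1.86e-07). BAG2, which restrains the ubiquitin ligase STUB1, rose with overlapping groups (log2 fold change 0.25, SE 0.05, edgeR adjusted p = 2.37e-04), and genes on the opposite strand cover 44.2% of its exon bases. BAG3, which works with the small heat shock protein HSPB8 in selective autophagy, had the highest level of the family per kilobase, at 16.3 CPM. It rose as well (log2 fold change 0.15, SE 0.037, edgeR adjusted p = 7.63e-04). Without scaling to length, BAG2 (75.5 CPM) and BAG5 (57.3) stood above BAG3 (44.6) in siCtrl. The order of the rises of BAG2 and BAG3 depended on the fit: with the GC correction BAG3 was at 0.25 and BAG2 at 0.16 (edgeR adjusted p = 0.00949).

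The paired genes of the mitochondrial chaperonin moved apart. HSPD1, the barrel, was at 669, 648, 630.2, 646 and 614 CPM in siCtrl and 597, 569, 614, 622 and 595 CPM in siDDX41. The groups touched, since siCtrl replicate 5 lay below siDDX41 replicate 4, and the fall was small (log2 fold change -0.098, SE 0.028, edgeR adjusted p = 0.00273); it was not called with siCtrl replicate 1 or siDDX41 replicate 2 left out, nor by DESeq2 (-0.088), while the GC correction enlarged it to -0.16 (edgeR adjusted p = 1.98e-06). HSPE1, the lid, was at 57.6, 58.2, 53.1, 57.5 and 52.5 CPM in siCtrl and 75.8, 63.9, 72.6, 73.3 and 69.5 CPM in siDDX41, with no overlap (log2 fold change 0.35, SE 0.042, edgeR adjusted p = 2.72e-08). The genes lie head to head on chromosome 2, with 539 bases between their RefSeq starts, and the overlapping elements shown for HSPD1 fall between these starts, 294 bases before that of HSPE1. Per kilobase the ratio of HSPE1 to HSPD1 was 0.364 ± 0.0102 in siCtrl and 0.496 ± 0.0222 in siDDX41. HSPE1 shares 10.5% of its exon bases with the readthrough gene HSPE1-MOB4, which was listed at 0. How reads in shared exons were assigned is not stated, so the level of HSPE1 and its ratio to HSPD1 are uncertain.

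TRiC/CCT, the cytosolic chaperonin that folds actin and tubulin, is built from 8 different subunits, and all were tested. CCT2, CCT3, CCT4 and CCT6A were described in addition, after values were seen, because they complete the complex. Of the 8 subunit genes 6 rose, CCT7 fell and CCT4 was not called (all genes tested: 30.3% rose, 32.1% fell). TCP1 was at 419, 419.9, 395, 401 and 407 CPM in siCtrl and 492, 445, 494, 479.9 and 490.4 CPM in siDDX41, without overlap (log2 fold change 0.23, SE 0.029, edgeR adjusted p = 3.26e-08). CCT5 was at 801, 793, 757, 792 and 771 CPM in siCtrl and 912, 875, 926, 939 and 926 CPM in siDDX41, also without overlap (log2 fold change 0.23, SE 0.026, edgeR adjusted p = 5.83e-09), and 30.8% of its exon bases are covered by other genes on the opposite strand. CCT7 went the other way in every library, from 627, 611, 579.8, 618 and 597 CPM in siCtrl to 523, 511, 518, 542 and 536 CPM in siDDX41 (log2 fold change -0.21, SE 0.027, edgeR adjusted p = 6.76e-08), and did so under every alternative normalization and test tried. The remaining rises were CCT3 (0.15), CCT2 (0.15), CCT6A (0.14) and CCT8 (0.13) on the log2 scale, and CCT4 stood at 0.067 (edgeR adjusted p = 0.0279), which was called with upper-quartile scaling (0.083) and with siCtrl replicate 2 (0.081) or siDDX41 replicate 2 (0.087) left out. With the GC correction CCT4 was at 0.020 (edgeR adjusted p = 0.517), CCT6A (0.063) and CCT8 (0.060) were no longer called, and CCT2 kept its call at 0.095. Per kilobase, siCtrl levels ran from 83.6 CPM (TCP1) to 199 CPM (CCT8). In siDDX41 replicate 2 each of the 8 subunits had its lowest value of the group, and over all 31 genes that rose this library was the lowest of its group for 18. Among the 13 that fell it was the lowest for 5 and the highest for 1. Other libraries were uneven too, with siDDX41 replicate 4 the highest of its group for 13 of the 31. Such counts were not made over all genes tested. The cause of this order was not tested.

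**Figure D3:**
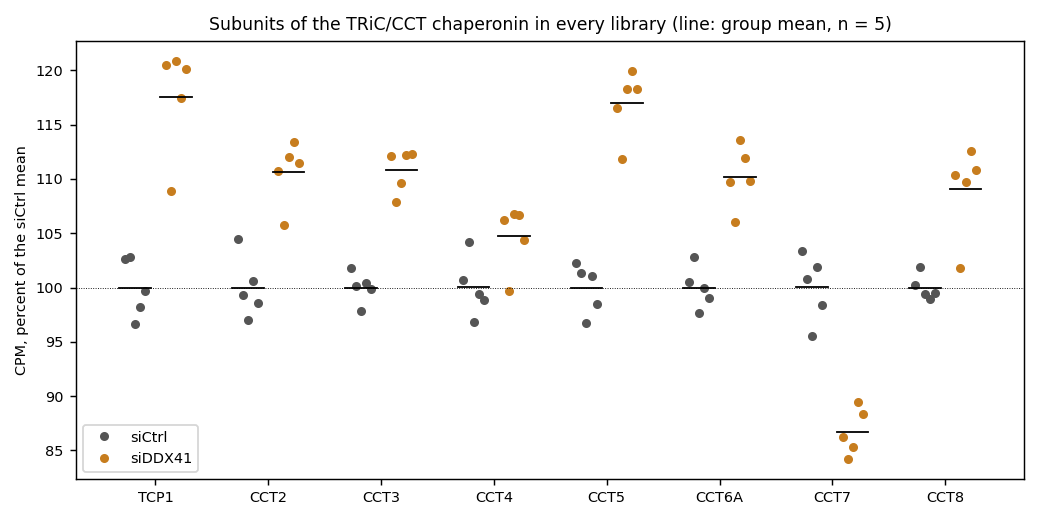
CPM of the 8 TRiC/CCT subunit genes in every library as a percentage of the gene's siCtrl mean, with siCtrl in grey, siDDX41 in orange and a line at each group mean (n = 5). TCP1 and CCT5 are the highest in siDDX41, CCT7 alone lies below the controls, between 84.2% and 89.4%, and the lowest orange point of every subunit is siDDX41 replicate 2.

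J-domain proteins, which choose the clients of HSP70, held the largest changes. In the DNAJA family, whose tested members serve HSC70 in the cytosol, DNAJA1 and DNAJA2 rose and DNAJA4 fell. DNAJA1, the most abundant of the family at 174 CPM per kilobase, was at 476, 459, 454, 477 and 454 CPM in siCtrl and 556, 531, 563, 569 and 567 CPM in siDDX41. The groups did not overlap (log2 fold change 0.26, SE 0.027, edgeR adjusted p = 4.58e-10). DNAJA2 rose to a like degree (log2 fold change 0.25, SE 0.031, edgeR adjusted p = 2.66e-08), while DNAJA4 fell from 11.8 ± 0.823 to 9.03 ± 0.598 CPM (log2 fold change -0.39, SE 0.067, edgeR adjusted p = 8.95e-06).

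Of 8 tested DNAJB genes 3 rose, 4 fell and DNAJB13 was not called, where 30.3% of all genes tested rose and 32.1% fell. DNAJB5 (chr9:34989641-34998900, GRCh38 positions of GENCODE 44), a cytosolic J protein of the HSP40 type, fell most, and was at 103, 103, 98.4, 105 and 102 CPM in siCtrl and 48.4, 48.9, 49.9, 51.1 and 48 CPM in siDDX41. Within each group the libraries lay close together, and between the groups the level fell to 0.481 of the control (log2 fold change -1.06, SE 0.032, edgeR adjusted p = 4.92e-22). DNAJB1 (HSP40), the stress-inducible partner of HSP70 and the most abundant of the family at 28 CPM per kilobase, was at 231, 235, 220.3, 230.2 and 230.2 CPM in siCtrl and 179, 184, 178, 189.9 and 198 CPM in siDDX41. It fell in all 5 knockdown libraries (log2 fold change -0.30, SE 0.03, edgeR adjusted p = 3.14e-10), opposite to DNAJA1 and HSP90AA1. The rises were led by DNAJB4, from 43 ± 1.27 to 63.8 ± 2.9 CPM (log2 fold change 0.57, SE 0.037, edgeR adjusted p = 4.03e-14), and DNAJB6, which keeps polyglutamine proteins from aggregating, from 71 ± 2.63 to 96.4 ± 2.1 CPM (log2 fold change 0.44, SE 0.032, edgeR adjusted p = 3.74e-13).

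The DNAJC family, the most diverse in domain structure, had 22 tested genes, of which 6 rose, 5 fell and 11 were not called, with a median log2 fold change of 0.038, beside 30.3% rising and 32.1% falling among all genes tested. DNAJC22 (chr12:49346888-49357546), a membrane J protein, was at 40.3, 37.4, 44.3, 42.7 and 45.8 CPM in siCtrl and 15.4, 20.5, 17, 18.7 and 18.1 CPM in siDDX41. All knockdown libraries lay below the lowest control, at 0.427 of the control level on average (log2 fold change -1.23, SE 0.065, edgeR adjusted p = 5.16e-13). DNAJC9, which chaperones histones H3 and H4, fell from 106 ± 1.48 to 79.4 ± 2.43 CPM (log2 fold change -0.42, SE 0.03, edgeR adjusted p = 3.55e-13), although 56.5% of its exon bases are covered by other genes on the opposite strand and use of strand in the counting is not stated. DNAJC27, a J protein with a Rab-like GTPase domain, was at 14.1, 14.9, 15.8, 13.8 and 15.4 CPM in siCtrl and 25.8, 25.2, 24.1, 23.3 and 25.1 CPM in siDDX41, the largest rise of the 64 genes (log2 fold change 0.74, SE 0.051, edgeR adjusted p = 1.65e-13). DNAJC8, a splicing-associated protein with the highest level of the family per kilobase (55.4 CPM), was at 160.3 ± 2.83 and 166 ± 5.42 CPM (log2 fold change 0.047, SE 0.028, edgeR adjusted p = 0.139).

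Small heat shock proteins, which hold unfolded proteins without using ATP, were mostly rare in these cells. HSPB1 (HSP27), the most abundant at 184 CPM per kilobase, was at 285, 351, 263, 278 and 318 CPM in siCtrl and 295, 302, 322, 296 and 317 CPM in siDDX41. The controls spread widely around the knockdown libraries, with siCtrl replicate 2 the highest and siCtrl replicate 3 the lowest of all 10, and no difference was called (log2 fold change 0.034, SE 0.076, edgeR adjusted p = 0.713). HSPB8 rose from 46.4 ± 1.85 to 53.5 ± 2.9 CPM (log2 fold change 0.21, SE 0.04, edgeR adjusted p = 4.02e-05). HSPB2 fell from 0.897 ± 0.195 to 0.447 ± 0.0711 CPM (0.499 of the control level, edgeR adjusted p = 3.02e-04), at a level of few reads and with 85.3% of its exon bases shared with a readthrough gene. HSPBAP1, named for its binding to HSPB1 and taken in by its symbol, rose from 11.9 ± 0.852 to 18.9 ± 0.693 CPM (log2 fold change 0.66, SE 0.057, edgeR adjusted p = 1.59e-11).

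Genes of the same pathways that the symbols leave out were compared in 4 lists, beside all genes tested, of which 30.3% rose and 32.1% fell with a median log2 fold change of -0.0014; PFDN6 and PAM16 in these lists were at 0 and not tested. Of 8 other heat shock response genes 3 fell and 5 were not called, with a median log2 fold change of -0.11. The tally depends on how genes were sorted, since the heat-inducible CHORDC1, which rose, was listed with the co-chaperones. SERPINH1 (HSP47), the collagen chaperone, was at 550.1, 539, 492, 518 and 536 CPM in siCtrl and 195, 212, 199, 211 and 214 CPM in siDDX41 (log2 fold change -1.35, SE 0.032, edgeR adjusted p = 5.12e-24). CRYAB, the small heat shock protein alpha-B crystallin and a neighbour of HSPB2 on chromosome 11, was at 157, 144, 150.2, 161 and 149.6 CPM in siCtrl and 32.4, 48.7, 35.5, 44.3 and 46 CPM in siDDX41 (log2 fold change -1.88, SE 0.1, edgeR adjusted p = 1.32e-07). Neither gene's groups overlapped, and both falls exceeded that of any of the 64 genes.

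Co-chaperones of HSP90 and HSP70 had 7 of 16 tested genes higher, 6 lower and 3 not called, and a median log2 fold change of 0.037. CHORDC1, a heat-inducible HSP90 partner, rose from 104 ± 2.14 to 156 ± 9.21 CPM (log2 fold change 0.58, SE 0.034, edgeR adjusted p = 3.30e-15), and PTGES3 (p23), which holds HSP90 in its closed state, from 437 ± 15.9 to 594 ± 24.5 CPM (log2 fold change 0.44, SE 0.03, edgeR adjusted p = 7.22e-14). Prefoldin and TRiC cofactors had 4 of 8 tested genes higher and 4 not called, with a median log2 fold change of 0.10. PFDN2, a prefoldin subunit that hands clients to TRiC, rose from 41 ± 2.08 to 57.1 ± 3.89 CPM (log2 fold change 0.48, SE 0.044, edgeR adjusted p = 1.75e-10), and the TRiC regulator TXNDC9 from 67.7 ± 2.38 to 88.2 ± 3.05 CPM (log2 fold change 0.38, SE 0.034, edgeR adjusted p = 2.86e-11). Mitochondrial folding and protease genes had 5 of 8 tested higher, 2 lower and 1 not called, with a median log2 fold change of 0.17. LONP1, a protease of the matrix where HSPA9 works, rose from 49 ± 2.99 to 63.4 ± 2.96 CPM (log2 fold change 0.37, SE 0.041, edgeR adjusted p = 3.26e-09), whereas CLPB, a disaggregase of the intermembrane space, fell from 27.3 ± 1.26 to 17.4 ± 0.471 CPM (log2 fold change -0.65, SE 0.047, edgeR adjusted p = 4.01e-13).

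Base composition moved with these changes. The exons of chaperone genes that rose had a median GC content of 43.7%, those that fell 50.9% and those not called 48.0%, and across the 64 genes GC content and log2 fold change had a Spearman correlation of -0.36, against -0.14 across 15936 tested genes; genes are not independent replicates. Libraries of a group also differed by GC content, with siCtrl replicates 2 and 3 at opposite ends. With the GC correction 28 chaperone genes rose and 13 fell, and HSPH1 was called lower at -0.083. The larger changes kept their calls, with DNAJC22 at -1.23, DNAJB5 at -0.96, DNAJC27 at 0.70, SERPINH1 at -1.28, HSPA9 at 0.44 and HSP90AA1 at 0.42, and HSPA13 kept its call at a smaller rise (0.11).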

How the data were processed

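Per the submitters' processing notes and the study's methods, the authors demultiplexed reads with bcl2fastq 2.19, aligned them to hg38 with STAR 2.7 and deposited counts per gene from featureCounts 1.6 with GENCODE 25. Libraries were stranded and polyadenylated; whether strand was used in counting, and how reads of several genes were treated, is not given in the sources used here. From these counts, identifiers were matched to GENCODE 44 names (56948 of 63299 matched), which also gave coordinates and exon lengths on GRCh38. Genes kept by filterByExpr were tested in R 4.3.3 with edgeR 4.0.16 (TMM factors, robust quasi-likelihood fit, unpaired, adjusted p under 0.01, the study's threshold), after the test was tried on simulated data. Alternatives used DESeq2 1.42.0, limma 3.58.1, other scalings and filters, a replicate block, each library left out and a GC correction added after seeing the data. Members and lists were chosen with earlier results of these data known. Named genes were DDX41, HSF1, up to 3 called members of each role group with the smallest adjusted p, its most abundant tested member in siCtrl per kilobase, and 2 called genes of each other list; HSPH1, HSPBAP1, CCT2, CCT3, CCT4 and CCT6A, and genes listed in counts of 5 or fewer, were added after values were seen. Protein sequences were not used here, so planned counts of protein motifs were not run.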

Additional observations from a re-analysis of the deposited data

Results flagged for a closer look

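In 6 of 96 groups of 5 libraries checked for the named genes, a library stood apart from the other 4 by more than 0.71 of the group's whole range; chance alone does so in about 1 of 20 groups. In siDDX41 replicate 2 this held for TCP1 at 445 CPM (others 479.9 to 494), CCT8 at 678 CPM (others 731 to 750.2) and DNAJB6 at 92.8 CPM (others 96.5 to 97.8), each the lowest of its group. HSPA14 was lowest in siCtrl replicate 5 at 51.1 CPM (others 54.5 to 55.8), HSPB2 in siCtrl replicate 4 at 0.556 CPM (others 0.939 to 1.05), and DNAJA4 in siDDX41 replicate 5 at 8.003 CPM (others 9.12 to 9.48). Left out in turn, none of these libraries ended the call of the gene concerned; their cause was not tested.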

How the results depend on the processing

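Over 21 alternatives, 28 to 33 chaperone genes rose and 11 to 15 fell, except where a log2 fold change over 0.25 was also asked for, which left 15 rising and 9 falling. Leaving out each library in turn gave 29 to 33 rising and 11 to 14 falling. Apart from the alternative that also asked for a log2 fold change over 0.25, which lost 20, 35 of the 44 calls held in every fit. With the replicate number as a block, 30 rose and 13 fell, and only HSPA8 lost its call; same-numbered libraries did not deviate together (correlations -0.0524 to 0.0446), and 1 of 5 siCtrl libraries correlated best with its own number. Among 863 values of 48 named genes under these fits, 838 kept their direction and side of the threshold. Signs turned only for genes without a call before a setting was changed: DNAJC8 with the GC correction (-0.012), HSPH1 with the GC correction, where it was called lower (-0.083), and among genes with at least 5 CPM (-0.016), and, with a library left out, HSPH1 (-0.014 to 0.013) and HSPB1 (-0.011 to 0.097). The cause was not tested. Of the 24 chaperone genes under the filter, DNAJC12, DNAJC18, HSPB3 and HSPB7 were called when the filter, the tool or the set of libraries changed.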
